A study of Mus musculus with 9 samples.

Results

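The genes of sterol and fatty acid synthesis examined here were 30 genes, found by their symbols among the 55468 genes of the expression table and read in all 9 libraries. They comprise 18 enzymes of cholesterol synthesis, 6 genes that regulate the pathway or move its product, and 6 enzymes of fatty acid synthesis and desaturation. Each symbol matched 1 gene, and all 30 had at least 1 FPKM (the fragment count of a gene divided by its transcript length and by the library's mapped fragments, so that levels of different genes can be compared) in every library. The lowest level belonged to Mvd in 2KR, with 2.62 FPKM.

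The libraries were made from total RNA of mouse intestinal tract, 1 for each of 9 conditions. The study asked how diets lacking methionine, tryptophan and niacin act on the gut in a model of inflammatory bowel disease made with dextran sulfate sodium (DSS), a polymer in the drinking water that injures the gut lining. Mice of 8 conditions drank DSS freely from day 18 of rearing. The 4 groups taken at day 28 had been fed without methionine (1K), without tryptophan and niacin (2K), without any of the 3 nutrients (3K) or normally (R), where without stands for a diet labelled deficient. At day 33, tissue came from mice that had the same deficient diets to day 28 and normal feed thereafter (1KR, 2KR and 3KR), and from mice on normal feed throughout (RR). The control without DSS (C) had the normal diet and was collected at day 34. The labels give no strain, sex, age at the start, gut segment or hour of collection, and do not say whether a library is 1 animal or a pool. With 1 library per condition there is no spread between replicates, so a difference between a pair of libraries is a description of those libraries and carries no p-value. In bulk tissue, fewer cells that make a transcript and less of it per cell cannot be told apart.

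Cells make cholesterol from acetyl-CoA through mevalonate, isoprenoid units, squalene and lanosterol. The transcription factor SREBP-2, product of Srebf2, raises the genes of this route when membrane sterol is low, and its relative SREBP-1, product of Srebf1, acts more on fatty acid synthesis. The escort protein SCAP carries both to the Golgi for cleavage, and the INSIG proteins hold SCAP back in the endoplasmic reticulum when sterol is plentiful. The intestinal epithelium is a major site of cholesterol synthesis and also absorbs dietary and biliary sterol.

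The number of genes at 1 FPKM or more ran from 15908 in 2KR to 17256 in R, and the estimated depth from 14.3 M fragments in 3KR to 31.1 M in 2KR. The least covered member, Mvd in 2K, then had an estimated 119 fragments, so counting noise was small beside a 2-fold difference. Small RNAs took 49.7% of the summed FPKM in 3KR and 14.1% to 25.6% elsewhere. All 8 markers of intestinal epithelium were present in every library, with summed levels of 2303 FPKM (2K) to 16073 FPKM (3KR). The 3KR sum was mostly Muc2, at 13510 FPKM, against 3452 in RR. Of the 8 markers, 6 were below RR in 3KR and 2 above, with a median log2 difference of -0.32. Several libraries also carried transcripts of other organs or of particular gut regions. The sum of 11 liver markers was 31055 FPKM in 2K but 11.5 to 310 FPKM elsewhere, the sum of 12 pancreatic acinar markers was 41506 FPKM in 2K and 49582 FPKM in 3K but at most 111 FPKM elsewhere, and the sum of 8 stomach markers was 16794 FPKM in 2K and at most 2.22 FPKM elsewhere. Transcripts of colon, ileum, proximal small intestine and fat tissue also differed, and their values stand beside the results they move with.

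Promoter sequences show what the members share outside their levels. RefSeq promoter entries on GRCm38.p6 were matched for 24 of the 30 members, and the 250 bases before each start were searched on both strands for TCACNCCAC (a form of the sterol regulatory element that SREBPs bind), CCAAT (bound by NF-Y, a partner of SREBPs), GGGCGG (the box bound by Sp1) and CACGTG (the E-box). A match is only a run of letters. CCAAT was present before at least 1 start of 19 of the 24 members (79.2%), against 37.5% of 27025 genes in the RefSeq table and 40.1% of the 11010 of them with a mean of at least 1 FPKM. Among the sterol enzymes 14 of 15 held it, among the regulators 4 of 5, and among the fatty acid enzymes 1 of 4, which was Fasn. GGGCGG was present in 20 of 24 members (83.3%), against 35.4% of all genes and 60.3% of those with a mean of at least 1 FPKM. CACGTG was present in 5 of 24 members (20.8%), against 6.86% and 9.44%. TCACNCCAC was found for Hmgcs1 alone among the 24 members, against 1.22% of all genes. The 5 windows printed here were chosen to set a sterol enzyme with both elements and a sterol enzyme with CCAAT words, whose levels stood highest in 3KR, beside a sterol enzyme, a regulator and a fatty acid enzyme whose levels did not. Capitals mark TCACNCCAC and CCAAT on either strand, CCAAT reading ATTGG on the opposite strand, and each sequence is given 5′ to 3′ on the strand of its gene. In Fasn a CCAAT and an ATTGG overlap. The windows are chr13:119690101-119690350 (plus strand), chr8:122443423-122443672 (minus strand), chrX:8193513-8193762 (minus strand), chr1:121332590-121332839 (minus strand, the most upstream of 3 starts) and chr11:120824548-120824797 (minus strand).
Hmgcs1: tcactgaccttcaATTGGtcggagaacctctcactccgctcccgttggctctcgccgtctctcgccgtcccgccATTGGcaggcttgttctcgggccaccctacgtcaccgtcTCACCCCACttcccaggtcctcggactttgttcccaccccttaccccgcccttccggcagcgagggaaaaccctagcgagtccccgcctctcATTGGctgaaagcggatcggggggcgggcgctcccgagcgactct
Mvd: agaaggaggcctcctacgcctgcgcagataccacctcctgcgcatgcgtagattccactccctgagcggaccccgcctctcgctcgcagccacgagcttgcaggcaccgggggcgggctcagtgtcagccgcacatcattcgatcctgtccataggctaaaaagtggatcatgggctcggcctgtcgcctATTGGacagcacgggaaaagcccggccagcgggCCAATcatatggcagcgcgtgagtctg
Ebp: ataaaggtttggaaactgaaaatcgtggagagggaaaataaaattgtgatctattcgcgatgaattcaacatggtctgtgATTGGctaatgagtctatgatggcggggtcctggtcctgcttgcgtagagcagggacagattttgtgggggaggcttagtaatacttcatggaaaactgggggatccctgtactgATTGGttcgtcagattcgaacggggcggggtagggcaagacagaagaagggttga
Insig2: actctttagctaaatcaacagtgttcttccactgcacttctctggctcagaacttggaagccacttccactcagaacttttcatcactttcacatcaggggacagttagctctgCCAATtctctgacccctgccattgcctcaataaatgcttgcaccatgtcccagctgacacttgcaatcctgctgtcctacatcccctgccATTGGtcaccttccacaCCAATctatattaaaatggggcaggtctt
Fasn: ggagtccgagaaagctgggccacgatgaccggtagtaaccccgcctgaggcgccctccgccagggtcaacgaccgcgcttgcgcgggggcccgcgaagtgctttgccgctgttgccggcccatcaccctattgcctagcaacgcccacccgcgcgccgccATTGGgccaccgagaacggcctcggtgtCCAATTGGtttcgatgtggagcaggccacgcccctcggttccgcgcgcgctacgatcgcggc

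Levels of the 30 members did not move as 1 block across the 9 libraries. The 3KR library had the highest level for 13 of the 18 sterol enzymes, and 2K had the lowest for 10 of them. The control C had the highest level for 5 of the 6 fatty acid enzymes, and 1K had the lowest for 3 of the 6. Summed over the 18 sterol enzymes, the level was 544 FPKM in 1K, 249 in 2K and 265 in 3K, against 400 in R; it was 354 in 1KR, 336 in 2KR and 704 in 3KR, against 312 in RR; and it was 509 in C. Summed over the 6 fatty acid enzymes, the level was 98.5 FPKM in 1K, 448 in 2K and 180 in 3K, against 309 in R; it was 336 in 1KR, 347 in 2KR and 247 in 3KR, against 259 in RR; and it was 694 in C. The sterol sum was thus highest in 3KR and lowest in 2K, and the fatty acid sum was highest in C and lowest in 1K.

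**Figure D1:**
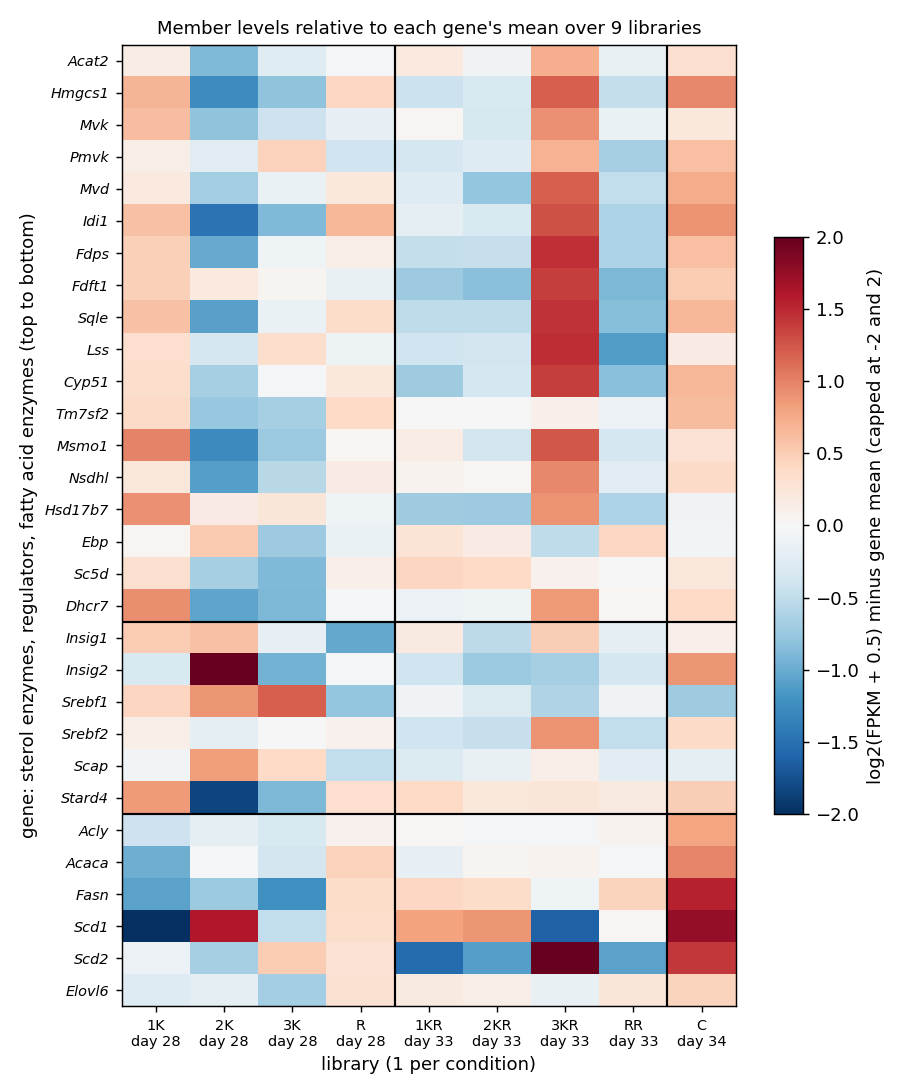
Levels of the 30 members in the 9 libraries, as log2(FPKM + 0.5) minus the mean of each gene over the libraries (colour, capped at -2 and 2), with genes grouped from top to bottom as sterol enzymes, regulators and fatty acid enzymes. The 3KR column is highest for 13 of 18 sterol enzymes, the 2K column is lowest for 10 of them, and C is highest for 5 of 6 fatty acid enzymes.

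The clearest shift of the sterol enzymes was in mice refed after the diet lacking all 3 nutrients. Of the 30 members, 15 were higher by 2-fold or more in 3KR than in RR and 1 was lower by 2-fold or more, where 11.4% of 18263 genes were higher by 2-fold or more and 9.73% lower by 2-fold or more. Of the 18 sterol enzymes, 13 were higher by 2-fold or more and 17 were above RR, with a median log2 difference of 1.54 against 0.03 over all genes. Differences are given as log2 of FPKM + 0.5 in the first library over the second.

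At the start of the route, Hmgcs1, the cytosolic enzyme that makes HMG-CoA (ENSMUSG00000093930, chromosome 13, 119690379 to 119708260, plus strand), had 35.0 FPKM in 1KR, 38.2 in 2KR and 109 in 3KR, against 33.9 in RR. The 3KR level was also above the 92.5 FPKM of C, and the other 3 libraries of day 33 lay close together. The log2 difference between 3KR and RR was 1.66. Acat2, which joins acetyl-CoA units before that step, was at 10.5 FPKM in 3KR against 5.52 in RR (0.87), short of 2-fold, and 39.1% of its transcript sequence is shared with Acat3 and Tcp1. The kinases and the decarboxylase that turn mevalonate into isopentenyl diphosphate followed: Mvk was at 13.5 FPKM in 3KR against 6.28 in RR (1.04), Pmvk at 14.1 against 5.15 (1.37) and Mvd at 11.6 against 3.29 (1.67). All 3 were higher in 3KR than in any of the other 8 libraries.

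Idi1, the isomerase that makes the second isoprenoid unit (ENSMUSG00000058258, chromosome 13, 8885501 to 8892451, plus strand), had 7.70 FPKM in 1KR, 6.96 in 2KR and 21.9 in 3KR, against 5.55 in RR, a log2 difference of 1.89 for 3KR. Fdps, which builds farnesyl diphosphate, had 14.9 FPKM in 1KR, 15.1 in 2KR and 58.3 in 3KR, against 13.4 in RR (2.07 for 3KR). For both genes 3KR stood alone at day 33, with the 3 other libraries within a narrow band. Of their annotated transcript sequence, 25.3% for Idi1 and 26.2% for Fdps also occurs in other annotated genes, so reads could have been divided between them.

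The enzymes that commit carbon to sterols had the largest differences of the route. Fdft1 (squalene synthase) had 7.10 FPKM in 1KR, 6.56 in 2KR and 32.1 in 3KR, against 6.25 in RR, and the log2 difference of 3KR was 2.27. Of the Fdft1 transcript sequence, 26.5% also occurs in Ctsb and Gm6781, so its reads too could have been divided. Sqle (squalene epoxidase) had 10.3 FPKM in 1KR, 10.2 in 2KR and 41.3 in 3KR, against 8.01 in RR (2.29 for 3KR). Lss (lanosterol synthase; chromosome 10, 76531588 to 76557138, plus strand) had 10 FPKM in 1KR, 10.2 in 2KR and 37.8 in 3KR, against 5.84 in RR (2.59 for 3KR). In these 3 genes the 3KR level was at least 1.74 times the next highest of the 9 libraries.

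Past lanosterol, Cyp51 (lanosterol demethylase) was at 42.2 FPKM in 3KR against 8.62 in RR (2.23), Msmo1 (the C4 methyl oxidase) at 106 against 35.3 (1.57), Nsdhl (a C4 dehydrogenase) at 24.1 against 10.4 (1.18) and Hsd17b7 (the C4 keto reductase) at 23.9 against 8.07 (1.51). The last steps of the route did not reach 2-fold. Dhcr7, which makes cholesterol from its immediate precursor, was at 61.0 FPKM in 3KR against 34.8 in RR (0.80), Tm7sf2 (a C14 sterol reductase) at 13.2 against 11.3 (0.21) and Sc5d (lathosterol desaturase) at 51.8 against 48.1 (0.11). Ebp, the sterol isomerase, was the 1 enzyme below RR, at 32.5 FPKM in 3KR against 61.8 in RR (-0.91). Among the 18 enzymes, Ebp also had the only negative correlation with their median profile, an r of -0.56 over the 9 libraries, while Sqle, Fdps and Hmgcs1 had r of 0.98, 0.98 and 0.95, each profile containing the gene itself and all genes sharing the scaling of their library. Its promoter nonetheless holds CCAAT words, as the printed window shows.

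**Figure D2:**
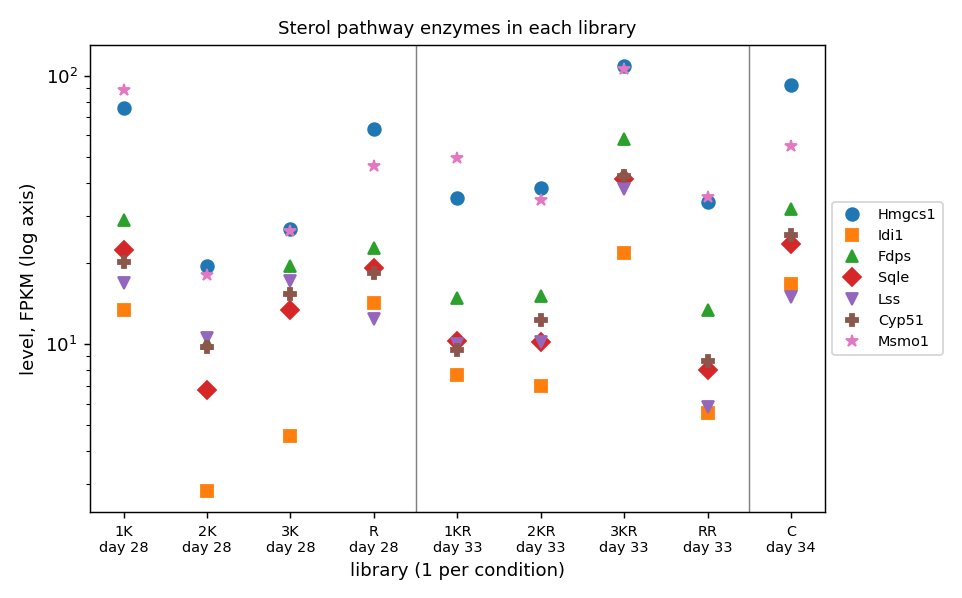
Level in FPKM (log axis) of 7 sterol enzymes in each of the 9 libraries, 1 point per gene and library. All 7 have their highest point in 3KR, where Lss reaches 37.8 FPKM against 5.84 in RR, and Hmgcs1, Idi1 and Msmo1 have their lowest in 2K.

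Among the regulators, Srebf2 was the 1 gene higher by 2-fold or more in 3KR, with 37.1 FPKM in 1KR, 35.6 in 2KR and 92.1 in 3KR, against 34.7 in RR (1.40 for 3KR). Its level was the highest of the 9 libraries in 3KR and followed the sterol enzymes, with an r of 0.87 to their median profile. Insig1, an SREBP target that retains SCAP, was at 30.6 FPKM in 3KR against 18.8 in RR (0.69), and Scap at 32.1 against 25.4 (0.33). Srebf1 was at 59.9 FPKM in 3KR against 87.1 in RR (-0.54), Insig2 at 32.5 against 40.4 (-0.31) and Stard4, a carrier of cholesterol between membranes, at 55.0 against 52.6 (0.06). The 2 SREBP genes therefore lay on opposite sides of RR.

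The fatty acid enzymes did not share the sterol pattern in 3KR. Their median log2 difference to RR was -0.24, with 1 of 6 higher by 2-fold or more and 1 lower by 2-fold or more, and both of these were stearoyl-CoA desaturases, which make monounsaturated fatty acids. Scd2 (chromosome 19, 44293674 to 44306864, plus strand) had 6.74 FPKM in 1KR, 9.27 in 2KR and 102 in 3KR, against 9.43 in RR (3.36 for 3KR). Scd1, its neighbour on chromosome 19 (44394455 to 44407879, minus strand), had 200 FPKM in 1KR, 211 in 2KR and 36.7 in 3KR, against 117 in RR (-1.66 for 3KR). The pair thus went opposite ways in the same library, and they share only 4.56% (Scd1) and 3.97% (Scd2) of their transcript sequence with other annotated genes. Acly, which makes cytosolic acetyl-CoA, was at 36.3 FPKM in 3KR against 38.7 in RR, Acaca (acetyl-CoA carboxylase) at 17.0 against 15.6, Fasn (fatty acid synthase) at 42.7 against 61.6 and the elongase Elovl6 at 13.1 against 17.3.

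The shift in 3KR depended on which library it was set against. With 1KR or 2KR in place of RR, 11 of the 18 sterol enzymes were higher by 2-fold or more in 3KR and the medians were 1.26 and 1.54, where 13.7% and 12.5% of all genes were higher. With R the number was 8 (median 0.98), where 8.76% of all genes were higher. With the control C it was 1 (median 0.52), and of all 30 members 1 was higher by 2-fold or more and 3 lower, near the 9.59% and 6.67% of all genes. These comparisons with other libraries were chosen after the data had been seen. As the difference of 3KR minus 1KR minus 2KR plus RR on the log2 scale, which is 0 where the refed diets add up, Fdft1 had 2.04, Fdps 1.77, Mvd 1.72, Hsd17b7 1.71, Sqle 1.62 and Cyp51 1.61, with Scd2 at 3.84 and Scd1 at -3.29. This value was above 0 for 15 of the 18 sterol enzymes, with a median of 1.10, and below 0 for Sc5d (-0.75), Ebp (-0.54) and Tm7sf2 (-0.03), with 1 library behind each term. No share over all genes is given for it, so these counts have no background. The matching value at day 28, 3K minus 1K minus 2K plus R, was mixed in sign. It was -0.75 for Fdft1, 0.59 for Fdps, 0.58 for Mvd, -0.93 for Hsd17b7, 0.73 for Sqle and 0.50 for Cyp51.

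Markers of gut region moved with this result. The 7 colon markers summed to 1390 FPKM in 3KR, against 185 in RR and at most 193 in the other 8 libraries. Most of that sum was Car1, with 1151 FPKM in 3KR, against 0 in RR and C and at most 2.56 in the remaining libraries, while others of the list were at 128 FPKM (Car4), 69.1 (Slc26a3) and 14.8 (Aqp8) in 3KR, with Hoxb13 at 0.159 and Hoxd13 at 0. The 8 duodenum and jejunum markers summed to 204 FPKM in 3KR, the lowest of the 9 libraries, against 2238 in RR, and the 6 ileum markers to 1199 FPKM in 3KR against 366 in RR. R and C, which also had low duodenum and jejunum sums of 362 and 261 FPKM and the highest ileum sums of 2738 and 4222 FPKM, had sterol sums of 400 and 509 FPKM, above RR (312) and below 3KR (704). The 1K library went the other way, with the highest duodenum and jejunum sum, 3523 FPKM, and a sterol sum of 544 FPKM, above R and C. The 10 adipocyte markers summed to 136 FPKM in 3KR against 461 in RR, with Adipoq at 3.34 against 17.1. Clock genes moved as well, summing to 237 FPKM in 3KR against 364 in RR, and of the 13 that reached 1 FPKM 4 were lower by 2-fold or more and 1 higher. Dbp, a clock output factor, was at 11.3 FPKM in 3KR against 61.1 in RR and Nr1d1, a clock repressor, at 18.1 against 88.6. The part of these regions, cells and clock genes in the result was not tested.

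**Figure D3:**
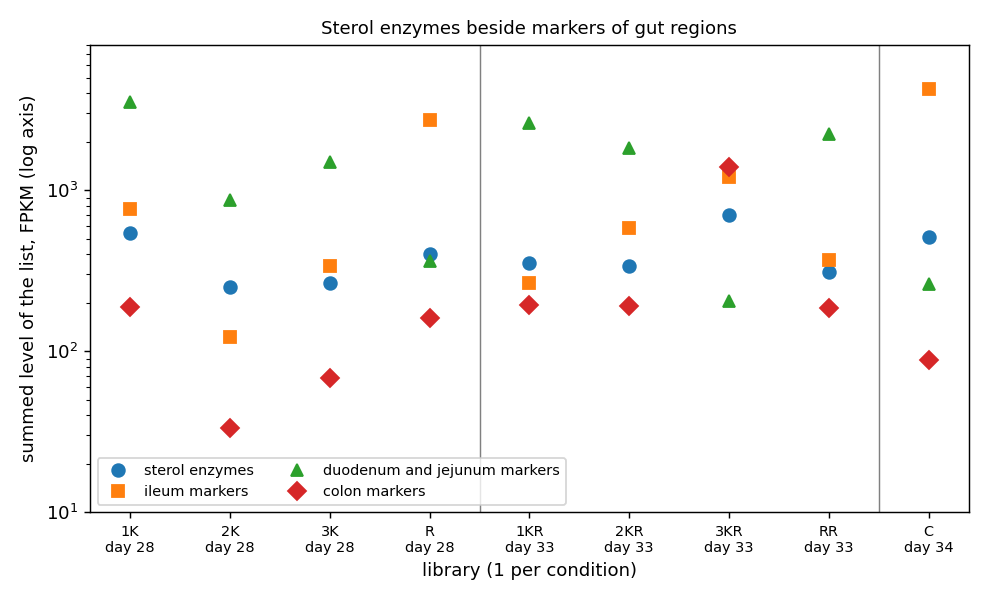
Summed level in FPKM (log axis) of the 18 sterol enzymes and of 3 lists of gut region markers in each of the 9 libraries, 1 point per list and library. The sterol sum is highest in 3KR, at 704 FPKM, where the colon sum is also highest, at 1390 FPKM, and the duodenum and jejunum sum is lowest, at 204 FPKM.

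After refeeding from either partial diet, the members lay near RR. None (0) of the 30 was higher by 2-fold or more or lower in 1KR than in RR, where 2.47% of 17070 genes were higher by 2-fold or more and 3.51% lower, and none (0) in 2KR, where 2.67% of 17035 genes were higher and 3.67% lower. With shares this low over all genes, counts of 0 among 30 members are near the background. The medians of the sterol enzymes were 0.20 in 1KR and 0.14 in 2KR. In 1KR the largest differences to RR were those of Scd1 (0.78) and Lss (0.73), and in 2KR they were those of Scd1 (0.85) and Lss (0.76). Lss was at 10 FPKM in 1KR and 10.2 in 2KR, against 5.84 in RR, which both pairs share.

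At day 28, before refeeding, the diet lacking tryptophan and niacin had the lowest sterol enzyme levels. Of the 30 members, 5 were higher by 2-fold or more and 10 lower by 2-fold or more in 2K than in R, where 14.7% of 19035 genes were higher and 14.1% lower, so the share of higher members was near that of all genes. The sterol enzymes had 8 of 18 lower by 2-fold or more and 0 higher, with a median of -0.89 against 0.02 over all genes. Idi1 had 13.4 FPKM in 1K, 2.83 in 2K and 4.53 in 3K, against 14.2 in R (-2.14 for 2K). Hmgcs1 had 75.7 FPKM in 1K, 19.5 in 2K and 26.8 in 3K, against 63.2 in R (-1.67 for 2K). Both genes were low in the 2 libraries whose diet lacked tryptophan and niacin, and 1K stood near R.

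The other 6 enzymes that were lower by 2-fold or more in 2K were Sqle (6.73 FPKM in 2K against 19.3 in R, -1.45), Msmo1 (18.1 against 46.1, -1.33), Nsdhl (5.40 against 13.6, -1.26), Tm7sf2 (7.11 against 16.4, -1.15), Fdps (10.1 against 22.9, -1.14) and Dhcr7 (15.9 against 32.7, -1.01). Stard4 had 83.3 FPKM in 1K, 12.6 in 2K and 24.6 in 3K, against 58.7 in R, and its -2.18 in 2K was the lowest value of the 30 members. Fdft1 was at 13.9 FPKM in 2K against 10.8 in R and Ebp at 67.0 against 42.3, so the route did not lie below R as a whole.

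Of the 6 regulators, 4 were higher by 2-fold or more in 2K than in R, and Stard4, given above, was lower. Insig2 (chromosome 1, 121304353 to 121332589, minus strand) had 41.8 FPKM in 1K, 303 in 2K and 26.8 in 3K, against 51.1 in R (2.56 for 2K). Srebf1 had 123 FPKM in 1K, 169 in 2K and 209 in 3K, against 52.9 in R, and its log2 differences were 1.21 in 1K, 1.67 in 2K and 1.97 in 3K. The 3 differences share the library R, so they are not independent of each other. Insig1 was at 32.6 FPKM in 2K against 10.4 in R (1.60) and Scap at 52.5 against 20.8 (1.31), whereas Srebf2 was at 43.2 against 51.9 (-0.26). Of the fatty acid enzymes, Scd1 was at 348 FPKM in 2K against 146 in R (1.25) and Fasn at 26.8 against 58.5 (-1.11).

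The 2K library carried the liver, acinar and stomach transcripts given above, with Alb at 15459 FPKM in 2K against 85.3 in R, and all 8 epithelial markers were below R, for example Vil1 at 151 FPKM in 2K against 671 in R and Epcam at 204 against 570. The ileum markers summed to 122 FPKM in 2K against 2738 in R and the duodenum and jejunum markers to 867 against 362, and 9 of 10 proliferation markers were lower by 2-fold or more. The part of these tissues and regions in the member values of 2K, including Insig2 and Scd1, was not tested. With the library scaled to its sum without the liver, acinar and stomach marker genes, an alternative chosen after the data had been seen, 6 members rather than 10 were lower by 2-fold or more in 2K. Scaled instead to the sum without small RNA and mitochondrial genes, 3 members were higher and 16 lower, and the share of higher genes among all genes 2-fold or more apart was 25.7% rather than 51.0%.

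In 3K, which lacked all 3 nutrients, fewer members were far from R. Of the 30 members, 1 was higher by 2-fold or more and 5 lower by 2-fold or more than R, where 11.6% of 18873 genes were higher and 13.4% lower, so the count of members lower was near the share of all genes. The 5 were Fasn (19.1 FPKM in 3K against 58.5 in R, -1.59), Idi1 (-1.55), Stard4 (-1.24), Hmgcs1 (-1.22) and Tm7sf2 (7.58 against 16.4, -1.06), and the 1 was Srebf1. The median of the sterol enzymes was -0.42, with 14 of 18 below R. Lss (17.2 FPKM in 3K against 12.4 in R) and Pmvk (11.9 against 6.30) lay above. The acinar sum was 49582 FPKM in 3K against 78.8 in R, the liver sum 310 against 196 and the stomach sum 1.12 against 0.651. All 8 epithelial markers were below R, with a median of -0.86, the ileum sum was 340 FPKM in 3K against 2738 in R and the duodenum and jejunum sum 1503 against 362. The part of these tissues and regions in the values of 3K was not tested. Scaled to the sum without small RNA and mitochondrial genes, 12 members were lower by 2-fold or more and 1 higher, with 29.4% rather than 46.3% of all genes 2-fold or more apart being higher.

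Methionine deficiency alone went with low fatty acid enzymes and with sterol enzymes near or somewhat above R. Of the 30 members, 3 were higher by 2-fold or more and 3 lower by 2-fold or more in 1K than in R, where 7.17% of 18165 genes were higher and 8.63% lower. Both counts were thus near the shares of all genes. All 3 lower members were fatty acid enzymes. Scd1 had 10.9 FPKM in 1K, 348 in 2K and 80.7 in 3K, against 146 in R, and its -3.69 in 1K was the largest difference of any member in the 12 pairs after the 4.14 between 1KR and 1K. Acaca was at 7.92 FPKM in 1K against 22.3 in R (-1.44) and Fasn at 21.4 against 58.5 (-1.43). Acly was at 27.4 against 39.2, Elovl6 at 12.1 against 18.2 and Scd2 at 18.9 against 25.0, so all 6 lay below R, with a median of -1.0.

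The 3 higher members in 1K were Insig1 (31.0 FPKM in 1K against 10.4 in R, 1.53), Srebf1 (1.21) and Hsd17b7 (24.2 against 11.8, 1.00). Msmo1 was at 89.0 FPKM in 1K against 46.1 in R (0.94) and Dhcr7 at 64.4 against 32.7 (0.97), and 15 of 18 sterol enzymes lay above R with a median of 0.24, but scaled to the sum without small RNA and mitochondrial genes that median was -0.26 and 6 lay above. Under that scaling the median of all genes was -0.44 rather than 0.03, 1 member was higher by 2-fold or more and 5 lower, and 15.4% rather than 45.4% of all genes 2-fold or more apart were higher; with median-of-ratios scaling the share was 31.1%. Relative to the median of all genes the sterol median of 1K was above it in each case. The sign of the sterol difference in 1K therefore depended on the scaling, and that of the 6 fatty acid enzymes did not.

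Adipocyte markers and those of several other cell types moved with the fatty acid enzymes in 1K. The 10 markers summed to 191 FPKM in 1K against 426 in R, and 7 of them were lower by 2-fold or more, with Adipoq at 0.85 FPKM in 1K against 20.7 in R, Plin1 at 0.497 against 11.6 and Lep listed at 0 against 0.606. Cidec, which enterocytes also express, was at 105 FPKM in 1K against 40.5 in R. Of the 6 fibroblast markers 5 were lower by 2-fold or more, summing to 115 FPKM in 1K against 542 in R, and all 8 macrophage markers were below R, summing to 115 against 425. The liver sum was 11.5 FPKM in 1K against 196 in R, the proliferation sum 86.4 against 151, the ileum sum 759 against 2738 and the duodenum and jejunum sum 3523 against 362. In 3KR the adipocyte list was low, as given above, and so were Scd1 and Thrsp, a lipogenic protein, at 1.22 FPKM in 3KR against 24.3 in RR and 0.721 in 1K against 14.0 in R. In C, where the 6 fatty acid enzymes summed highest, the adipocyte sum was also highest, at 634 FPKM. The sums parted in 3K, with 498 FPKM for adipocyte markers against 426 in R and 180 for fatty acid enzymes against 309. They also parted in 2K, where the adipocyte sum was 384 FPKM, below R, and the fatty acid sum 448, above R. The part of fat tissue, the other cell types and gut region in these values was not tested.

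**Figure D4:**
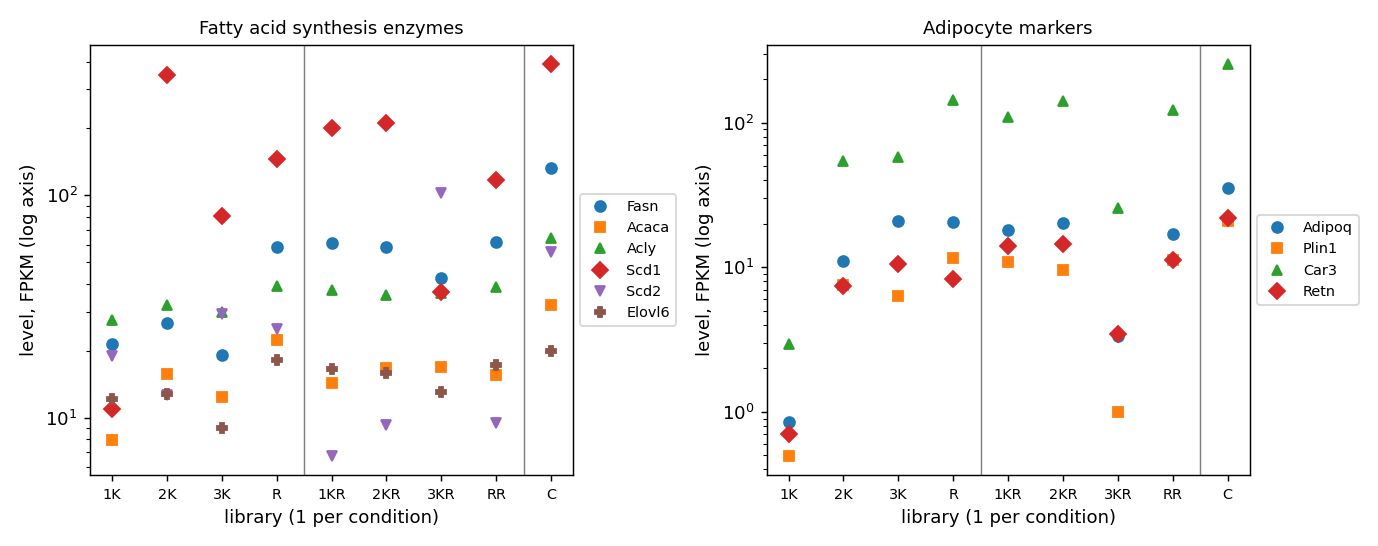
Levels in FPKM (log axes) of the 6 fatty acid enzymes (left) and of 4 adipocyte markers (right) in each of the 9 libraries, 1 point per gene and library. Scd1 ranges from 10.9 FPKM in 1K to 389 FPKM in C, and Adipoq from 0.85 FPKM in 1K to 35.4 FPKM in C, while Scd2 peaks in 3KR at 102 FPKM.

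DSS on the normal diet was compared with the control without DSS. All 30 members were below C in R, with 5 lower by 2-fold or more and 0 higher, where 3.22% of 18222 genes were lower and 4.43% higher. The median of the members was -0.36 against 0.01 over all genes. The fatty acid enzymes were farthest from C, with Scd1 at 146 FPKM in R against 389 in C (-1.41), Fasn at 58.5 against 133 (-1.18) and Scd2 at 25.0 against 55.5 (-1.14). Insig1 was at 10.4 FPKM in R against 23.2 in C (-1.12) and Pmvk at 6.30 against 13.1 (-1.0).

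In RR, 14 members were lower by 2-fold or more than C and 0 higher, where 5.81% of 18018 genes were lower and 6.71% higher. Of the sterol enzymes 9 of 18 were lower by 2-fold or more, with a median of -0.98. Sqle, Idi1 and Cyp51 each had -1.51, at 8.01 FPKM in RR against 23.7 in C, 5.55 against 16.8 and 8.62 against 25.5. Of the fatty acid enzymes 4 of 6 were lower by 2-fold or more, with Scd2 at 9.43 FPKM in RR against 55.5 in C (-2.50), Scd1 at 117 against 389 (-1.73), Fasn at 61.6 against 133 (-1.11) and Acaca at 15.6 against 32.2 (-1.02). Ebp and Srebf1 lay above C, at 61.8 FPKM in RR against 44.8 (0.46) and 87.1 against 55.6 (0.64). Scaled to the sum without small RNA and mitochondrial genes, 15 members were lower and 0 higher, with 34.6% rather than 53.6% of all genes 2-fold or more apart being higher.

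C differed from both libraries in more than DSS. It was collected at day 34, its duodenum and jejunum sum was 261 FPKM against 2238 in RR and 362 in R, and the 14 clock genes summed to 125 FPKM in C against 365 in R and 364 in RR. Dbp was at 46.9 FPKM in R and 61.1 in RR, against 1.81 in C. Sterol synthesis genes vary over the day in mouse liver, and the hour of collection is not given, so DSS, day, region and hour cannot be told apart here.

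**Figure D5:**
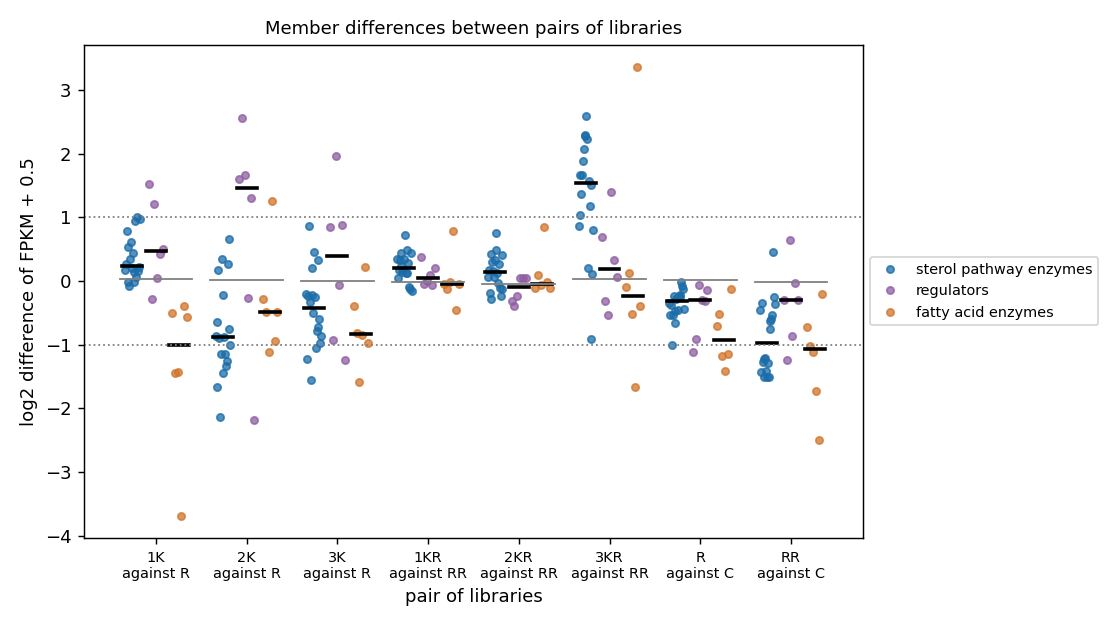
Log2 difference of FPKM + 0.5 of each member in 8 pairs of libraries, 1 point per gene, in 3 classes; black bars are class medians, thin grey lines the median of all genes and dotted lines a 2-fold difference. The sterol enzymes have medians of 1.54 in 3KR against RR and -0.89 in 2K against R, and lie at most 0.76 above RR in 1KR and 2KR.

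Comparing days within a diet gives the change over refeeding, confounded with age, longer DSS exposure and the make-up of the tissue. Between 3KR and 3K, 15 members were higher by 2-fold or more and 2 lower, where 13.3% of 18879 genes were higher and 11.7% lower, and all 18 sterol enzymes were above 3K with a median of 1.32. Idi1 had 21.9 FPKM in 3KR against 4.53 in 3K (2.15) and Hmgcs1 109 against 26.8 (2.00), whereas Srebf1 had 59.9 against 209 (-1.80). The acinar sum was 35.2 FPKM in 3KR against 49582 in 3K, the colon sum 1390 against 68.5, the duodenum and jejunum sum 204 against 1503 and the adipocyte sum 136 against 498, and their part was not tested. Scaled to the sum without small RNA and mitochondrial genes, 18 members were higher and 1 lower, with 67.6% rather than 53.2% of all genes 2-fold or more apart being higher.

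Between 1KR and 1K most fatty acid enzymes and most sterol enzymes went opposite ways. Of the 30 members, 2 were higher by 2-fold or more and 7 lower, where 6.57% of 17495 genes were higher and 7.79% lower. The count of members higher was near the share of all genes. Scd1 had 200 FPKM in 1KR against 10.9 in 1K (4.14) and Fasn 60.8 against 21.4 (1.48), while 6 of 18 sterol enzymes were lower by 2-fold or more, with Hsd17b7 at 7.54 against 24.2 (-1.62) and a median of -0.74. Scd2 was the 1 fatty acid enzyme below 1K, at 6.74 FPKM in 1KR against 18.9 in 1K (-1.42). Scaled to the sum without small RNA and mitochondrial genes, 2 members were higher and 3 lower, with 60.8% rather than 45.8% of all genes 2-fold or more apart being higher. The adipocyte sum was 444 FPKM in 1KR against 191 in 1K, the fibroblast sum 260 against 115 and the macrophage sum 205 against 115, and their part was not tested.

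Between 2KR and 2K, 5 members were higher by 2-fold or more and 4 lower, where 13.5% of 18395 genes were higher and 19% lower. Neither count was far from the share of all genes. Stard4 had 54.0 FPKM in 2KR against 12.6 in 2K (2.06) and Idi1 6.96 against 2.83 (1.16), while Insig2 had 30.9 against 303 (-3.28). The liver sum was 169 FPKM in 2KR against 31055 in 2K and the acinar sum 111 against 41506, and their part was not tested. Scaled to the sum without small RNA and mitochondrial genes, 10 members were higher and 1 lower, with 59.0% rather than 41.5% of all genes 2-fold or more apart being higher. Between RR and R, both on the normal diet with DSS, 5 members were lower by 2-fold or more and 0 higher, where 5.29% of 18003 genes were lower and 5.42% higher. They were Scd2 (9.43 FPKM in RR against 25.0 in R, -1.36), Idi1 (-1.28), Sqle (8.01 against 19.3, -1.22), Cyp51 (8.62 against 18.4, -1.05) and Lss (5.84 against 12.4, -1.02). The ileum sum was 366 FPKM in RR against 2738 in R and the duodenum and jejunum sum 2238 against 362, and their part was not tested. Under the same scaling 6 were lower and 0 higher, with 34.7% rather than 50.6% of all genes 2-fold or more apart being higher.

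A linear model across the 8 DSS libraries gave a test of the diet factors over all genes. It was fitted with limma to 17577 genes, including all 30 members, with day, methionine deficiency, tryptophan and niacin deficiency and the change of each diet effect between days, and its error came from 2 residual degrees of freedom. None (0) of the 30 members passed an adjusted p of 0.05 (limma, Benjamini-Hochberg) for any of the 5 effects. Of all genes, 0% were called for methionine at day 28, 0.188% for tryptophan and niacin at day 28, 0% and 0% for the 2 diet factors at day 33 and 0.142% for day. At an unadjusted p under 0.05 the members numbered 3, 10, 2, 3 and 3 in that order, where 3.2%, 19.2%, 1.24%, 2.21% and 15.4% of all genes passed.

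The 10 members at day 28 were 8 below and 2 above for tryptophan and niacin deficiency. Stard4 came closest to the threshold, with an effect of -1.96 (SE 0.25, limma, adjusted p 0.109). Idi1 had -1.80 (SE 0.38, limma, adjusted p 0.155) and Hmgcs1 -1.58 (SE 0.41, limma, adjusted p 0.178). Srebf1 had 1.21 (SE 0.33, limma, adjusted p 0.184). For methionine deficiency at day 28, Scd1 had -2.89 with an SE of 0.90 (limma, adjusted p 1). The model takes the combined diet as the sum of the single diets, so the excess of 3KR over that sum entered its error. For the change of the diet effects between days none (0) of the members was called by limma either, where 0% of all genes were called for methionine and 0.148% for tryptophan and niacin, and 0 and 12 members passed unadjusted, where 2.11% and 9.03% of all genes did. For day 33 against day 28, Fasn had 0.95 (SE 0.23, limma, adjusted p 0.267).

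Other genes of these pathways, from lists drawn up beside the members, were read in the same way. Of 12 further genes of sterol synthesis and uptake, 4 were higher by 2-fold or more in 3KR than in RR and 3 lower by 2-fold or more. In that pair 11.4% of all genes were higher and 9.73% lower. The 3 lower were Cyb5r3 (82.7 against 247, -1.57), Cyb5b (109 against 225, -1.04) and Acat1 (32.0 against 65.5, -1.02), the first a reductase and the second a cytochrome of electron transfer, and the third a mitochondrial thiolase.

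Of 13 genes of sterol transport and of the LXR sterol sensors, 6 were lower by 2-fold or more in 3KR than in RR and 0 higher. The shares of all genes were 9.73% lower and 11.4% higher. Abcg5 and Abcg8, which together pump sterol out of enterocytes, were at 26.3 FPKM in 3KR against 164 in RR (-2.62) and 28.8 against 110 (-1.92). Soat2, which esterifies cholesterol, was at 15.2 against 66.4 (-2.09), Nr1h3 (LXR alpha) at 9.88 against 26.9 (-1.40), Npc1l1, the sterol importer, at 112 against 293 (-1.38) and Abca1 at 10.3 against 23.6 (-1.15). Most sterol synthesis enzymes thus stood above RR in the library in which these import, export and esterification genes stood below it. The duodenum and jejunum markers, several of them also enterocyte genes, were low in 3KR as given above, and their part in these values was not tested.

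Of 19 further genes of fatty acid and triglyceride synthesis, 18 reached 1 FPKM in 3KR or RR. In 3KR, 6 were lower by 2-fold or more and 0 higher, where 9.73% of all genes were lower and 11.4% higher. The 6 were Thrsp, Pnpla3 (listed at 0 in 3KR, against 3.27 FPKM in RR), Dgat2 (62.0 against 259, -2.05), Dgat1 (148 against 506, -1.77), Mlxipl (21.7 against 83.8, -1.92) and Me1 (9.35 against 25.4, -1.39). Dgat1 and Dgat2 make triglyceride, Mlxipl encodes the carbohydrate-responsive factor ChREBP and Me1 supplies NADPH. In 2K against R, 5 of 18 were higher by 2-fold or more and 0 lower, where 14.7% of all genes were higher and 14.1% lower. Lpin1 was at 38.8 FPKM in 2K against 6.05 in R (2.59) and Acacb at 15.1 against 3.70 (1.89), beside the liver transcripts of that library.

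In the sterol synthesis and uptake list, 2K had 2 of 12 higher by 2-fold or more than R and 2 lower. With 14.7% of all genes higher and 14.1% lower, both counts were near the background. The higher ones were Por, the electron donor of Cyp51 and Sqle, at 590 FPKM in 2K against 74.7 in R (2.97) and Acat1 at 65.9 against 32.2 (1.02). In 1K, 4 of 12 were higher and 0 lower, where 7.17% of all genes were higher and 8.63% lower. Por was at 367 FPKM in 1K against 74.7 in R (2.29). In RR, 3 of 12 were higher and 3 lower than C, where 6.71% of all genes were higher and 5.81% lower. In R against C none (0) of the 12 reached 2-fold either way, near the 4.43% of all genes higher and 3.22% lower.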

How the data were processed

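Total RNA was extracted with ISOGEN, depleted of ribosomal RNA with a Ribo-Zero Plus kit and made into stranded TruSeq libraries without the mRNA bead step, per the labels' protocols. The deposited table gives FPKM values for 55468 genes in 9 libraries, per the file headers, and HISAT2, Cuffdiff 2.2.1 and the build GRCm38 are named in the submitters' processing notes. No version of HISAT2 and no gene annotation is given there.

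From the FPKM as deposited, log2(FPKM + 0.5) was compared in 12 pairs of libraries. Genes under 1 FPKM in both were left out, and those differing 2-fold or more were counted, with no test. Library depth was estimated from the smallest step between FPKM values of genes with 1 annotated transcript, so no counting interval is given. GENCODE M21, which lacks 241 of the gene IDs, gave coordinates and the transcript sequence shared in runs of 50 bases with other genes. The 8 DSS libraries were fitted with limma 3.58.1 in R 4.3.3, with a mean-variance trend, on the 17577 genes whose mean reached 1 FPKM, with day, both diet factors and their changes between days as terms. The interaction between the diet factors was taken as 0 and gave the 2 residual degrees of freedom. Tests are two-sided, with Benjamini-Hochberg adjustment over all genes. C entered no fit. The fit was tested on simulated data with independent noise and known effects of a single term. Diet effects that do not add up and transcripts of other organs were not simulated.

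The members and gene lists were chosen with earlier results of these data known. Named were all members, the called genes of each other pathway list with up to 3 of its largest differences, marker sums with up to 3 leading markers, and the 10 genes most like the sterol profile. Further marker values were named after they had been seen. Some genes of the lists are not reported here. Alternatives were pseudocounts of 1 and 0.1, a floor of 5 FPKM or none, scaling by median of ratios over 7809 genes, scaling to the sum without small RNA and mitochondrial genes, a fit without the trend, diet effects common to both days and leaving out each library.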

Additional observations from a re-analysis of the deposited data

Results flagged for a closer look

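For Hmgcs1 and Idi1 the combined diet stood on opposite sides of the normal diet at the 2 days. The difference of Hmgcs1 between 3KR and RR exceeded that between 3K and R by 2.89 on the log2 scale, with 109 FPKM in 3KR against 33.9 in RR and 26.8 in 3K against 63.2 in R. For Idi1 the excess was 3.44, with 21.9 FPKM in 3KR against 5.55 in RR and 4.53 in 3K against 14.2 in R. Each rests on 4 libraries without replicates, so this difference itself was not tested. The nearest test in the fit is the change of the tryptophan and niacin effect between days, which averages over methionine status. It was 2.47 for Hmgcs1 (SE 0.58, limma, adjusted p 0.494) and 2.68 for Idi1 (SE 0.54, limma, adjusted p 0.493). For that term 12 of the 30 members had an unadjusted p under 0.05 and none (0) was called, where 9.03% of all genes passed the unadjusted threshold and 0.148% were called.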

How the results depend on the processing

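Of 102 member differences of at least 2-fold, recomputed as 633 alternative values, 605 stayed at least 2-fold, 28 were under 2-fold and 0 reversed, and 144 of 156 alternative counts were within 1.5 times. Scaling to the sum without small RNA and mitochondrial genes gave 1 member higher and 5 lower in 1K against R, 3 and 16 in 2K against R, 12 lower in 3K against R, 3 lower in 1KR against 1K, 10 higher and 1 lower in 2KR against 2K and 1 lower in 3KR against 3K. It moved the median of all genes from 0.02 to -0.48 in 2K against R, from 0.00 to -0.27 in 3K against R and from 0.03 to 0.17 in 3KR against RR. Without the liver, acinar and stomach genes 6 members were lower in 2K against R, and with C in place of RR 3KR had 1 higher and 3 lower. No paired analysis was possible because each condition has 1 library. In the limma fit no member was called under any alternative (0 of 30, 0 to 11 with an unadjusted p under 0.05). Over all genes the calls for tryptophan and niacin at day 28 numbered 33, and 20 with a floor of 5 FPKM, 67 without the trend, 1 with diet effects common to both days and 0 without any single library. With common effects, day 33 calls for that factor were 1 instead of 0 and day calls 4 instead of 25, and day calls were 0 without any single library. The causes were not tested. With 1 library per condition, no difference can be set against a spread between animals.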

Other observations

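Across the 10547 genes whose mean reached 5 FPKM, the levels of 10 genes outside the members lay closest to the median profile of the 18 sterol enzymes over the 9 libraries. The correlations describe 9 points that share scaling, and 3KR carries much of the range. Among them Ppp1cb, a catalytic subunit of protein phosphatase 1, had an r of 0.97, with 204 FPKM in 3KR against 157 in RR, a far narrower range. Poc1b, Mapk7 and Eid1 followed at 0.94 each, Rcc2 at 0.93 and Sh3bgrl3 at 0.92. Hsd11b2, which inactivates glucocorticoid and is a gene of the distal colon and kidney, had an r of 0.92, with 55.5 FPKM in 3KR against 2.49 in RR. Slc10a2, the ileal bile acid importer, had an r of 0.91, with 116 FPKM in 3KR against 1.58 in RR and 43.1 in C. Pglyrp1, an antibacterial protein, also had an r of 0.91, with 138 FPKM in 3KR against 36.2 in RR.

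Members differed in how far they followed that profile without 3KR. Hmgcs1, Fdps and Sqle kept an r of 0.96 each and Idi1 had 0.95, whereas Fdft1 had 0.51, Lss 0.59 and Hsd17b7 0.40, against 0.75, 0.81 and 0.62 with 3KR. Scd2 had 0.80 with 3KR and 0.61 without, and Scd1 had -0.52 and -0.39. Of the regulators, Srebf2 had 0.87 and 0.73, and Srebf1 had -0.55 and -0.48.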
